A study of Mus musculus with 6 samples.

Results

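The scaffold genes of the excitatory postsynaptic density were compared between prefrontal cortex of wild type mice and of mice heterozygous for the 16p11.2 duplication. The genes are 9 listed symbols, Shank1, Shank2, Shank3, Dlgap1, Dlgap2, Dlgap3, Dlgap4, Dlg2 and Dlg4, found by name among 45495 named lines of the count table, and all 9 passed the filter on low counts together with 15419 genes in all. Dlg1 and Dlg3, of the same family as Dlg2 and Dlg4, are given beside them. RNA sequencing was done on homogenate of prefrontal cortex at postnatal week 8, with 3 libraries labelled wild type and 3 labelled 16p11.2 duplication (heterozygous). Carriers of the human duplication have raised rates of autism and schizophrenia, and the matching mouse segment lies on chromosome 7. Both genotypes share the background, a hybrid of C57BL/6N and 129Sv repeatedly backcrossed to C57BL/6. Nothing in the labels says that the libraries came from separate animals or litters, so p-values measure only the spread between these samples.

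The postsynaptic density is the protein layer under the membrane of an excitatory synapse. Proteins of the PSD-95 family (the Dlg genes) lie nearest the membrane and hold glutamate receptors and adhesion proteins through their PDZ domains. SAPAP proteins (the Dlgap genes, also called GKAP) bind the guanylate kinase domain of the PSD-95 family, and their far C-terminal end binds the PDZ domain of SHANK proteins. SHANK proteins lie deeper, bind Homer and actin regulators, and join the layer to the spine cytoskeleton. Loss of SHANK3 or SHANK2 function in people is linked to autism and intellectual disability, and the SHANK genes are among the best studied synaptic genes in the cortex.

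The end of the coding sequence, which encodes the SHANK-binding end of SAPAP, is shown for the 4 Dlgap genes because their values lay on both sides of 0. Each line gives the last 36 coding bases of the longest complete coding transcript in GENCODE M21, 5′ to 3′, with the last 15 bases, the stop codon included, in capitals.
Dlgap1: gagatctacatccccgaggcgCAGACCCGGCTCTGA
Dlgap2: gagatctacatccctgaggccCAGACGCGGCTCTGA
Dlgap3: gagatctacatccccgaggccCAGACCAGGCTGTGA
Dlgap4: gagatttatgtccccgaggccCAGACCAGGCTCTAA
Between any 2 of the 4 genes, 29 to 33 of these 36 bases were identical, and 12 to 14 of the last 15. The capitals nevertheless encode the same residues, Gln-Thr-Arg-Leu and a stop, in all 4 genes. Dlgap1 shared 33 with Dlgap2 and 33 with Dlgap3, Dlgap3 and Dlgap4 shared 31, and Dlgap2 and Dlgap4 shared the fewest, 29.

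Depth was 12988457 to 21872271 counts per library. In the joint table names and counts were out of step, and values are given after re-alignment. The offset was 0 for Shank3, Dlg4 and Dlg1, 1 for Dlgap1, 2 for Dlgap3 and Dlgap4, 3 for Shank1, Shank2, Dlgap2 and Dlg2, and 6 for Dlg3. In a window of 500 lines around each of the 11 names, whether a name is protein-coding tracked the level of the counts most closely at that same offset. As deposited, Shank1 and Dlgap1 stood against lines with 0 counts in every library. As a check of the labels, 19 of 23 genes within the duplicated segment had every duplication library above every wild type library. Of all tested genes 11.7% had that order. All 12 neuron markers were measured, with a summed level of 10350 to 11020 CPM (the usual library-scaled count unit, here on effective library size), and the striatal markers summed to 112 to 138 CPM. Both libraries numbered 1 had 0 counts of Xist and 2515 and 4617 of 4 Y-linked genes, as male libraries have. The libraries numbered 3 had 3531 and 2567 counts of Xist with 4 and 10 of the Y-linked genes. Those numbered 2 had 2130 and 2090 of Xist and also 177 and 182 of the Y-linked genes, so they matched neither sex cleanly. Each genotype thus had 1 library without Xist and 2 with it.

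Of the 9 scaffold genes, none passed the test over all genes (edgeR quasi-likelihood test, Benjamini-Hochberg adjusted p under 0.05), with 0 higher and 0 lower, as for every other gene tested (0.00% called higher and 0.00% lower). At an unadjusted p under 0.05 the 5 genes Shank1, Shank2, Dlgap2, Dlgap4 and Dlg2 were lower and 0 were higher, where 12.2% of all genes were lower and 7.05% higher at that threshold. The log2 fold change of duplication over wild type was below 0 for 8 of 9 genes, against 49.1% of all genes, and above 0 for 1, against 50.9%. The median of the 9 was -0.18, against 0.005 for all tested genes. Of the 23 genes of the duplicated segment 0 passed the adjusted threshold either. At unadjusted p under 0.05, 20 of those 23 were higher, against 7.05% of all genes, and their median log2 fold change was 0.75. A lack of calls in this test therefore does not show a lack of change. DESeq2 called 2 of the 9, Dlgap2 and Dlgap4, as lower (adjusted p = 0.0437 for each), where it called 1.16% of genes lower and 0.317% higher, and limma-voom called 0 of the 9 (0.00% of genes in either direction). With no filter on low counts edgeR called Shank1, Dlgap2 and Dlgap4 as lower, where 3.19% of genes were called lower and 0.654% higher. Without wild type replicate 2, edgeR called 5 of the 9 as lower, Shank1, Shank2, Dlgap2, Dlgap4 and Dlg2, where 10.7% of all genes were called lower and 4.62% higher. The same 5 were called without both libraries numbered 2, an alternative chosen after seeing the data, where 7.02% of genes were called lower and 1.48% higher. With the replicate number as a block 0 of the 9 were called (0.00649% of genes lower and 0.0389% higher).

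**Figure D1:**
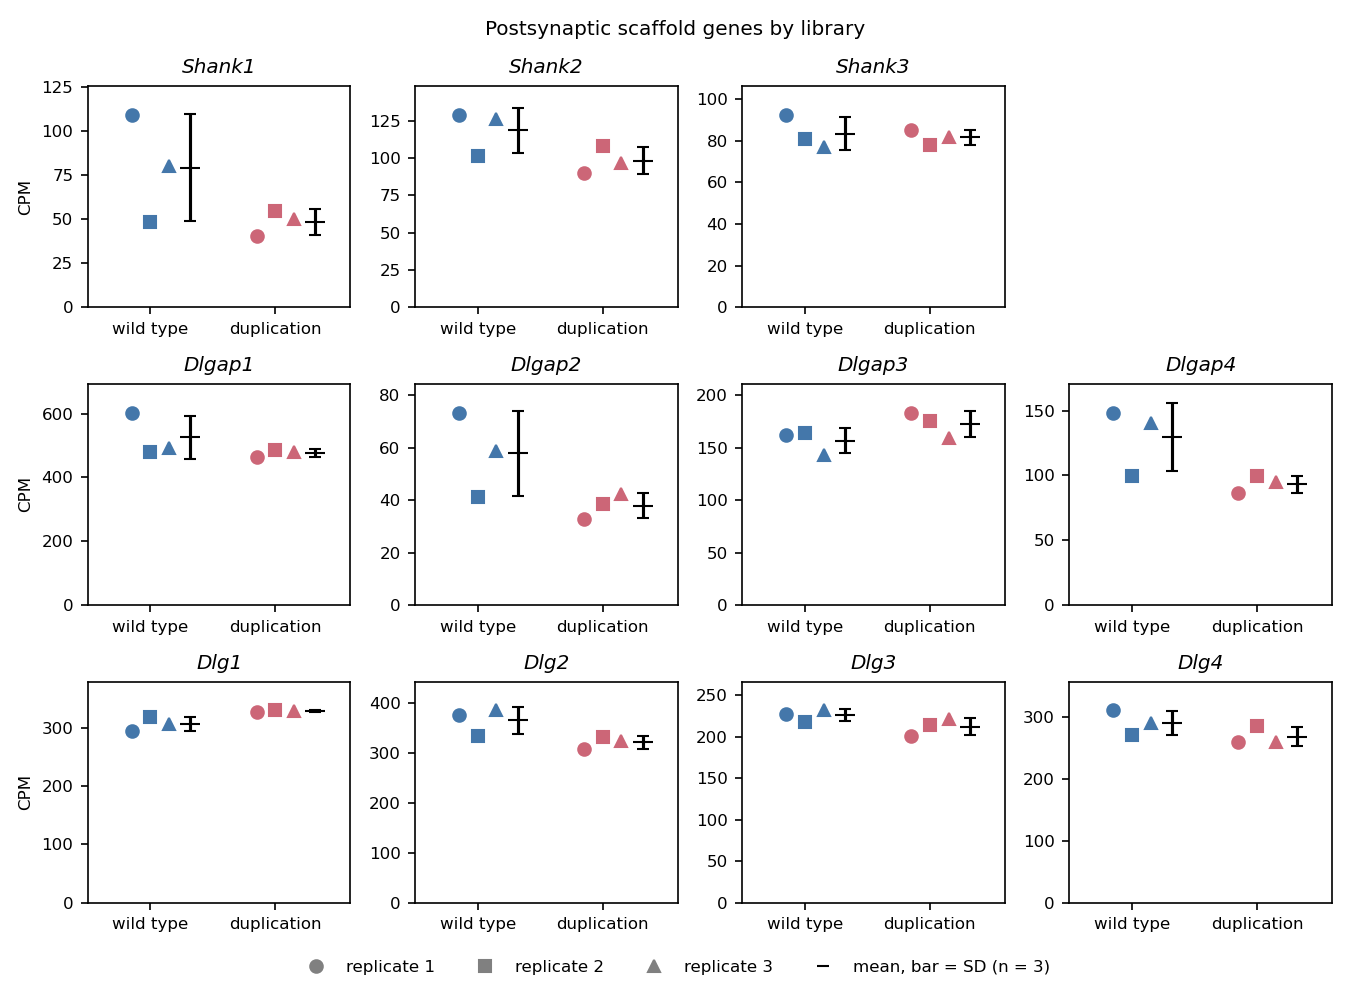
Library-scaled counts (CPM, vertical axis from 0) of the 9 scaffold genes and of Dlg1 and Dlg3 in each library, with marker shape for the replicate number and the group mean with its SD (n = 3) at the right of each group. For Shank1, Dlgap2 and Dlgap4 wild type replicates 1 and 3 lie above all duplication libraries, and wild type replicate 2 lies at the level of the duplication libraries.

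Shank1 (mm10 chromosome 7, 44310253 to 44360572, plus strand) had the lowest log2 fold change of the 9. It was at 109.4, 48.4 and 80.3 CPM in wild type replicates 1 to 3 and at 40.4, 54.9 and 50.3 CPM in duplication replicates 1 to 3. The groups overlapped, because wild type replicate 2 lay below duplication replicates 2 and 3. The means were 79.4 ± 30.5 and 48.5 ± 7.39 CPM (SD, n = 3 per group). The log2 fold change was -0.71 ± 0.25 (SE; 95% interval -1.27 to -0.15; edgeR adjusted p = 0.189). Without wild type replicate 2 it was -0.97 (edgeR adjusted p = 0.00336), and without wild type replicate 1 it was -0.41 (edgeR adjusted p = 0.425).

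Shank2 (chromosome 7, 144001928 to 144424494) and Shank3 (chromosome 15, 89499623 to 89560261) encode the other two SHANK proteins. Shank2 was at 129.1, 101.3 and 126.0 CPM in wild type and 90.2, 108.4 and 96.7 CPM in duplication replicates 1 to 3. Again only wild type replicate 2 lay within the duplication range, and the log2 fold change was -0.27 ± 0.10 (95% interval -0.51 to -0.04; edgeR adjusted p = 0.216). Shank3 was at 92.5, 80.9 and 77.0 CPM in wild type and 85.4, 78.2 and 81.9 CPM in duplication libraries. Its libraries were mixed without order, with a log2 fold change of -0.03 ± 0.08 (edgeR adjusted p = 0.874) that was above 0 without wild type replicate 1 (0.05) or without duplication replicate 2 (0.006). The 95% interval of Shank3, -0.21 to 0.15, leaves out a change as large as the point estimates of Shank1 or Shank2. It overlaps the intervals of both, and differences between the genes were not tested. Shank1, Shank2 and Dlg2 share chromosome 7 with the duplicated segment but lie 82.3, 17.0 and 34.2 Mb from it.

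Among the SAPAP genes, Dlgap2 (chromosome 8, 14095865 to 14847680) was at 73.4, 41.3 and 58.8 CPM in wild type and 32.7, 38.6 and 42.5 CPM in duplication replicates 1 to 3. Its log2 fold change was -0.61 ± 0.18 (95% interval -1.03 to -0.19; edgeR adjusted p = 0.175), and the groups overlapped at wild type replicate 2. Without wild type replicate 1 the value for Dlgap2 was -0.40, and without wild type replicate 2 it was -0.81. Dlgap4 (chromosome 2, 156613705 to 156764363), which encodes SAPAP4, was at 148.4, 99.8 and 140.4 CPM in wild type and 86.2, 99.2 and 94.6 CPM in duplication libraries. All duplication libraries were below all wild type libraries, though wild type replicate 2 and duplication replicate 2 were almost level. The log2 fold change of Dlgap4 was -0.47 ± 0.13 (95% interval -0.78 to -0.17), with the smallest edgeR adjusted p of the 9 genes, 0.174.

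Dlgap3 (chromosome 4, 127169204 to 127237022), whose loss in mice gives compulsive grooming, was the single listed gene with a value above 0. It was at 162.0, 164.3 and 142.6 CPM in wild type and 183.3, 175.8 and 159.2 CPM in duplication libraries, with only duplication replicate 3 inside the wild type range. Its log2 fold change was 0.14 ± 0.08 (95% interval -0.03 to 0.32; edgeR adjusted p = 0.340), and 0.08 without wild type replicate 3. Dlgap1 (chromosome 17, 69969073 to 70821413) was the most highly counted of the 11 genes, at 602.7, 478.5 and 493.5 CPM in wild type and 463.0, 484.9 and 480.4 CPM in duplication libraries. One library, wild type replicate 1, stood above the other 5, and the log2 fold change was -0.14 ± 0.09 (edgeR adjusted p = 0.396). Without wild type replicate 1 the log2 fold change of Dlgap1 was -0.03.

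Of the PSD-95 family, Dlg4 (chromosome 11, 70016942 to 70047522) encodes PSD-95 itself. It was at 310.2, 271.1 and 290.4 CPM in wild type and 259.4, 285.5 and 259.0 CPM in duplication replicates 1 to 3. Its groups overlapped, and the log2 fold change was -0.12 ± 0.07 (95% interval -0.28 to 0.04; edgeR adjusted p = 0.384). Without wild type replicate 1 it was -0.07. Dlg2 (chromosome 7, 90476672 to 92449247), which encodes PSD-93, was at 376.1, 335.3 and 385.8 CPM in wild type and 308.2, 333.2 and 325.1 CPM in duplication libraries. Dlg2 and Dlgap4 were the 2 of 9 genes with every duplication library below every wild type library, where 10.5% of all genes had that order, and 0 of 9 had the opposite order, which 11.7% of all genes had. For Dlg2 too the margin was narrow at wild type replicate 2, and the log2 fold change was -0.18 ± 0.07 (95% interval -0.34 to -0.03; edgeR adjusted p = 0.210).

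Dlg1 and Dlg3 lay on opposite sides of 0. Dlg1 (chromosome 16, 31663443 to 31875129), which encodes SAP97, was at 295.0, 318.5 and 305.8 CPM in wild type and 326.5, 329.5 and 328.2 CPM in duplication libraries. Every duplication library of Dlg1 was above every wild type library, by a small step, with a log2 fold change of 0.10 ± 0.06 (edgeR adjusted p = 0.353). Dlg3 (chromosome X, 100767722 to 100818410), which encodes SAP102, overlapped between groups, at 225.5 ± 7.27 and 211.9 ± 9.98 CPM (SD, n = 3 per group), with a log2 fold change of -0.09 ± 0.06 (edgeR adjusted p = 0.434), and -0.05 without duplication replicate 1.

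**Figure D2:**
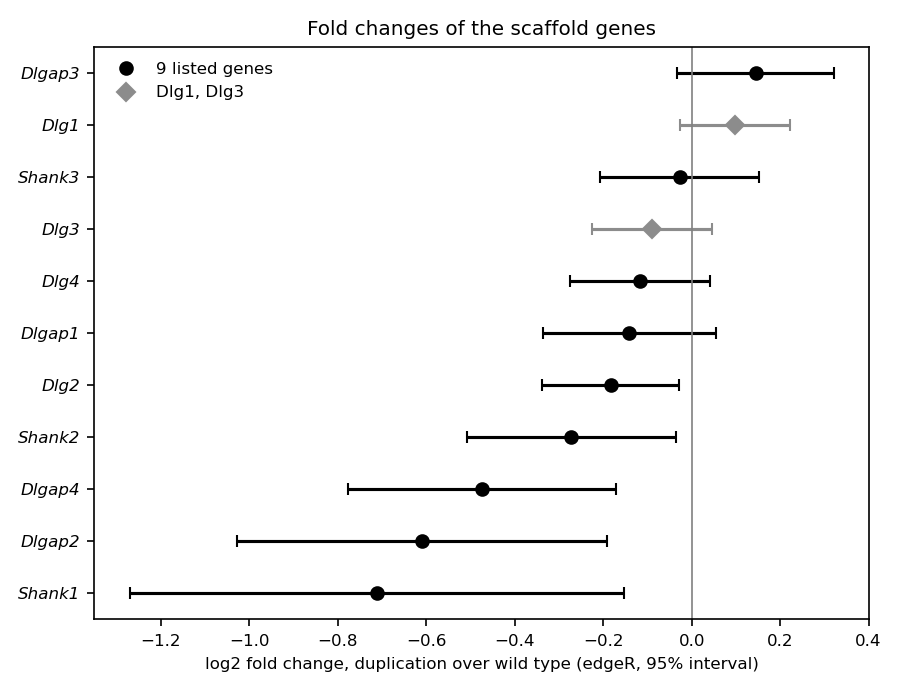
Log2 fold change of duplication over wild type (horizontal axis) with its 95% interval from edgeR for each gene, circles for the 9 listed genes and diamonds for Dlg1 and Dlg3. Intervals of Shank1, Dlgap2, Dlgap4, Shank2 and Dlg2 leave out 0 before adjustment over all genes, and Dlgap3 and Dlg1 are the genes above 0.

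The order of the libraries in the 9 genes was set beside that in all tested genes. Over all tested genes the first principal component, 45.5% of the variance, placed wild type replicates 1 and 3 at -27.2 and -26.7, wild type replicate 2 at 4.1 and the duplication libraries at 7.2 to 24.8. Wild type replicate 1 was the highest library for 7 of the 9 genes, against 22.7% of all genes, and duplication replicate 1 the lowest for 6, against 20.6%. Wild type replicates 1 and 3 were both above all duplication libraries for 7 of 9 genes, all but Shank3 and Dlgap3, and for 24.4% of all genes. Wild type replicate 2 lay inside the range of the duplication libraries for 7 of 9, all but Dlgap4 and Dlg2, and for 47.7% of all genes. The libraries numbered 1, which lacked Xist, were farther apart than the others: their log2 ratio of duplication to wild type was -1.44 for Shank1, -1.17 for Dlgap2 and -0.78 for Dlgap4 (1 library per genotype, no test). In the 2 libraries per genotype with Xist the ratios were -0.29, -0.30 and -0.31 in the same order. Shank3 was at -0.12 and 0.02, and Dlgap3 at 0.18 and 0.13. The ratios with Xist join unlike libraries, since those numbered 2 matched neither sex cleanly. In the libraries numbered 2, wild type and duplication were at 48.4 and 54.9 CPM for Shank1. They were at 41.3 and 38.6 for Dlgap2 and at 99.8 and 99.2 for Dlgap4. In those numbered 3 the values were 80.3 and 50.3, 58.8 and 42.5, and 140.4 and 94.6 CPM for the same genes. With sex, called from Xist counts of at least 100, as a covariate in edgeR, 0 of the 9 genes passed (smallest adjusted p of the 9, 0.228). The libraries numbered 2 were entered there as female.

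A class of unspliced RNA was high and low in much the same libraries. Transcripts annotated as TEC (clusters of unspliced ESTs) or sense intronic, 290 tested of 1291 in the table, had a mean centred log2 CPM (log2 CPM less the gene's 6-library mean) of 0.47, 0.00 and 0.53 in the wild type libraries and of -0.44, -0.43 and -0.13 in the duplication libraries. Their median log2 fold change was -0.70. Shank1 lay at 0.86, -0.31 and 0.42 and at -0.57, -0.13 and -0.26 on the same scale, and Dlg4 at 0.15, -0.04 and 0.06 and at -0.10, 0.03 and -0.11. With the level of that class as a covariate in edgeR, which left 3 residual degrees of freedom, log2 fold changes were 0.29 for Shank1, 0.19 for Dlgap2, 0.07 for Dlgap4, 0.03 for Shank2, 0.01 for Dlg2 and -0.08 for Dlgap3, and 0 of the 9 genes had an unadjusted p under 0.05. In that fit only 1.50% of all genes were higher and 1.39% lower at that threshold. Calls were thus fewer over all genes and not only among the 9. Nuclear long noncoding RNAs such as Malat1, Neat1 and Meg3 had 9 of 9 log2 fold changes below 0 and a median of -0.40. Of these RNAs 0 passed the adjusted threshold in edgeR. At unadjusted p under 0.05, 7 of them were lower, against 12.2% of all genes. With their level as the covariate the log2 fold change was -0.12 for Shank1, -0.12 for Dlgap2, -0.09 for Dlgap4, -0.08 for Shank2 and -0.04 for Dlg2. Again 0 of the 9 had an unadjusted p under 0.05, where 1.23% of all genes were higher and 1.40% lower. The levels of both classes were higher in every wild type library than in every duplication library. Neither fit can therefore separate its class from genotype. The part of either class in the scaffold values was not tested beyond these fits. Of the 9 nuclear RNAs, 7 had every duplication library below every wild type library, against 10.5% of all genes.

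**Figure D3:**
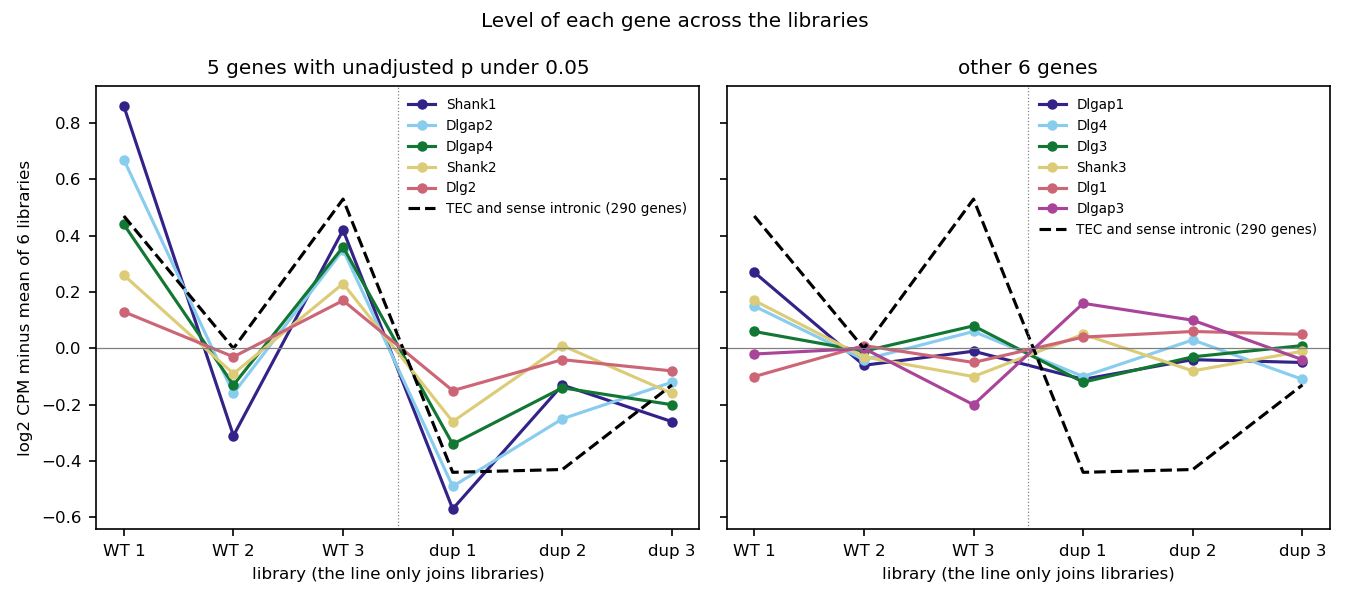
Log2 CPM minus the mean of the 6 libraries (vertical axis) for each library (horizontal axis), with the 5 genes at unadjusted p under 0.05 on the left and the other 6 on the right. The dashed line is the mean of 290 TEC and sense intronic transcripts, which like the genes on the left is high in wild type replicates 1 and 3 and low in the duplication libraries.

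Cell type markers were measured beside the scaffold genes. The mean of the 12 neuron markers lay between -0.07 and 0.12 on the centred log2 scale in the 6 libraries. Their single log2 fold changes ran from -0.36 to 0.18. At unadjusted p under 0.05, 2 of 12 were lower and 2 higher, against 12.2% and 7.05% of all genes. Meningeal fibroblast markers summed to 89.4 to 133.5 CPM in wild type and 184 to 369 CPM in duplication libraries, highest in duplication replicate 1, with 9 of 9 markers above 0. Oligodendrocyte markers summed to 1370 to 2356 CPM in wild type and 1229 to 1657 CPM in duplication libraries, with 8 of 8 below 0. Astrocyte markers (8 of 8 above 0), microglia markers (7 of 8) and endothelial and mural markers (7 of 8) had medians of 0.13, 0.08 and 0.16. No marker of these lists was at 0 in any library. Their part in the scaffold values was not tested, and in homogenate fewer cells of a type and less RNA per cell cannot be told apart.

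Levels between genes were compared per kilobase of exon, with the union of all annotated exons as length, so a gene with many rarely used exons is set too low. That union was 17890 bases for Dlgap1 and 13251 for Dlg4, against 4712 and 3414 in their longest complete coding transcripts. For Dlg3 and Dlgap3 it was 5844 and 4521, against 4956 and 3884. By transcript length Dlgap1, the most highly counted of these genes, would stand above Dlg3. The order and the family shares below hold for the union length only. By this length Dlg3 and Dlgap3 were highest over the 6 libraries, at 37.4 ± 1.84 and 36.4 ± 3.12 CPM per kilobase (SD over libraries). Dlg3 was above Dlgap3 in 4 of 6 libraries, so their order was not settled. Dlg1 and Dlgap1 followed at 29.6 ± 1.31 and 28.0 ± 2.85, with overlapping ranges. Dlg2 and Dlg4 were level at 21.1 ± 1.86 and 21.1 ± 1.51. Lower came Dlgap4 at 13.2 ± 3.09, Shank2 at 10.1 ± 1.47, Shank3 at 8.996 ± 0.617, Dlgap2 at 7.79 ± 2.48 and Shank1 at 6.08 ± 2.48. The ranges of neighbours were apart only below Dlgap3, below Dlgap1 and below Dlg4. Within the SHANK family, Shank1 held 26.6% ± 6.00 of the summed level per kilobase in wild type and 20.3% ± 2.15 in duplication libraries (SD, n = 3), while Shank2 held 40.1% ± 2.81 and 40.3% ± 1.80. Of the SAPAP sum, Dlgap2 held 10.5% ± 2.01 and 7.53% ± 1.07, and Dlgap3 39.2% ± 4.605 and 46.6% ± 2.79. In the PSD-95 family Dlg1 held 25.6% ± 1.66 and 28.6% ± 0.72. These shares were not tested. Shank3 held 33.3% ± 4.61 and 39.4% ± 3.73 of the SHANK sum, and Dlgap4 17.2% ± 2.54 and 13.5% ± 0.87 of the SAPAP sum. The shares of Dlgap4 and Dlg2 (lower in duplication libraries) and of Dlg1 (higher) did not overlap between the genotypes, and those of the other 8 genes did. Such shares have no counterpart over all genes. In CPM, 10.5% of all genes had every duplication library below every wild type library, and 11.7% had the opposite order. Shares within a family also depend on each other, so a rise of Dlg1 and a fall of Dlg2 are not separate observations.

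Coding GC content and gene span are set beside the values as a description. Shank1, Shank3 and Dlgap3 had the most GC-rich coding sequences of the 11, at 63.6%, 64.6% and 64.8%, where the median of 12935 tested genes was 53.1%, and their log2 fold changes were -0.71, -0.03 and 0.14. Dlg2 and Dlg1 had the lowest GC contents, 46.3% and 45.5%, with log2 fold changes of -0.18 and 0.10. The gene span was 50320 bases for Shank1, against 751816 for Dlgap2 and 1972576 for Dlg2. Dlg2 holds 30 other annotated genes within its span, 22 of them TEC transcripts, and 5 of the 30 were in the table. Exons of 5 of the 11 genes, Shank1, Shank3, Dlgap1, Dlgap4 and Dlg2, overlap an exon of another annotated gene. The overlapping genes present in the table had at most 15 counts in any library. Those whose exons overlap Dlgap1 and Dlg2 were not among the named lines, so their counts are not known. Whether the counting used strand is not stated in the sources used here.

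Promoters of 6 of the 9 genes, and of Dlg1 and Dlg3, were found in the RefSeq table of build GRCm38.p6, each from 250 bases before to 50 after a transcript start. The promoters of Dlgap4 and Dlgap3 are shown because these SAPAP genes lay on opposite sides of 0. The Dlgap4 window is chr2:156720715-156721014 and the Dlgap3 window chr4:127172630-127172929, both on the plus strand and both at a start site inside the annotated gene. Capitals mark the motif GGGCGG, a GC box, or its reverse complement.
Dlgap4: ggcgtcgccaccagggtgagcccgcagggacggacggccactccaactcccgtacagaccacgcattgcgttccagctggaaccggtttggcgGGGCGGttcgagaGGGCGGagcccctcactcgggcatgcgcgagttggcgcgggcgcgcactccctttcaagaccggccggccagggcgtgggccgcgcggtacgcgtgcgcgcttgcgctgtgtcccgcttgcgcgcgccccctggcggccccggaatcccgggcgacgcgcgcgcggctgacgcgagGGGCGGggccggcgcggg
Dlgap3: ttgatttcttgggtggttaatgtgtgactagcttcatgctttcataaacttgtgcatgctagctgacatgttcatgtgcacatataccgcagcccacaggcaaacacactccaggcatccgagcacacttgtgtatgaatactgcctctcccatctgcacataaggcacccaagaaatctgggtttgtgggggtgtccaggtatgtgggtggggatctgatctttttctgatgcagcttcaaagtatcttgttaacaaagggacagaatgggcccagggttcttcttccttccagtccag
The Dlgap4 window had a GC content of 76.3%, 50 CpG dinucleotides and 3 GC boxes, and the Dlgap3 window 47.7%, 2 and 0. GGGCGG was present on either strand in 35.7% of 32851 promoters. The Shank3 promoter held 4 matches to GGGCGG and 1 to GCGTGGGCG, the EGR motif, which 0.6% of promoters hold. TCGTG, a motif bound by bHLH-PAS factors such as NPAS4 and present in 16.0% of promoters, occurred in 1 of 2 Dlgap1 windows and in no other window of these genes, and the cAMP response element TGACGTCA (1.8% of promoters) in none. Only letters within these windows were searched.

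The other genes of these pathways were taken from 3 lists. Of 26 genes for partners of SHANK and SAPAP, 0 passed in edgeR, and the median log2 fold change was 0.01. At unadjusted p under 0.05, 8 were lower and 2 higher, against 12.2% and 7.05% of all genes. Wasf1, which encodes the actin regulator WAVE1, was at 136.1, 51.2 and 105.7 CPM in wild type and 38.8, 55.1 and 58.3 CPM in duplication libraries. As for Shank1, wild type replicates 1 and 3 were highest and duplication replicate 1 lowest, and the log2 fold change was -0.95 ± 0.30 (edgeR adjusted p = 0.177). The scaffold genes Tanc2 and Tanc1 were at -0.63 ± 0.19 and -0.37 ± 0.10. At the other end were Homer3 at 0.31 ± 0.23, a gene of few counts here, Abi1, a WAVE complex subunit that binds SHANK, at 0.19 ± 0.07, and Homer2 at 0.16 ± 0.10. Homer1, the main SHANK-binding Homer gene, named after its values were seen, was at 366.1, 544.2 and 521.5 CPM in wild type and 389.9, 550.1 and 519.5 CPM in duplication libraries. Its libraries numbered 1 were low in both genotypes, and its log2 fold change was 0.03 ± 0.16.

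Of 44 tested partners of PSD-95 and other PDZ scaffolds (45 in the list, where Cnksr1 had 2 counts in all), 0 passed in edgeR. The median was -0.09. At unadjusted p under 0.05, 11 were lower and 2 higher, against 12.2% and 7.05% of all genes. Nos1, the neuronal nitric oxide synthase held by PSD-95, was at -0.67 ± 0.24, Dlg5 at -0.64 ± 0.18 and Iqsec2, an exchange factor for Arf6, at -0.60 ± 0.22. Lin7b, Lin7c and Cript, small PDZ or PDZ-binding proteins, were at 0.19 ± 0.09, 0.18 ± 0.07 and 0.16 ± 0.07. For all 3 every duplication library was above every wild type library. That order held for 5 of the 44 genes, against 11.7% of all genes. The opposite order held for 11 of the 44, against 10.5% of all genes.

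PSD-95 is held at the membrane by palmitate, which DHHC enzymes add and ABHD17 enzymes remove. LYPLA enzymes, which also remove palmitate from proteins, were listed with them, and their action on PSD-95 was not tested. Of the 17 genes listed for palmitoylation, turnover and splicing of PSD-95, 0 passed in edgeR, and the median was 0.09. At unadjusted p under 0.05, 3 were higher and 0 lower, against 7.05% and 12.2% of all genes. The 3 were Lypla1 at 0.50 ± 0.09, Abhd17b at 0.24 ± 0.08 and Abhd17a at 0.22 ± 0.08, with every duplication library above every wild type library. That order held for 6 of the 17 and the opposite order for 1, against 11.7% and 10.5% of all genes. Lypla1 was at 19.7, 17.3 and 16.7 CPM in wild type and 26.9, 24.5 and 24.2 CPM in duplication libraries (edgeR adjusted p = 0.163). Zdhhc8, a palmitoyl transferase, was at -0.26 ± 0.12, Abhd17c at -0.16 ± 0.11 and Ptbp1, a repressor of PSD-95 splicing, at -0.09 ± 0.09.

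**Figure D4:**
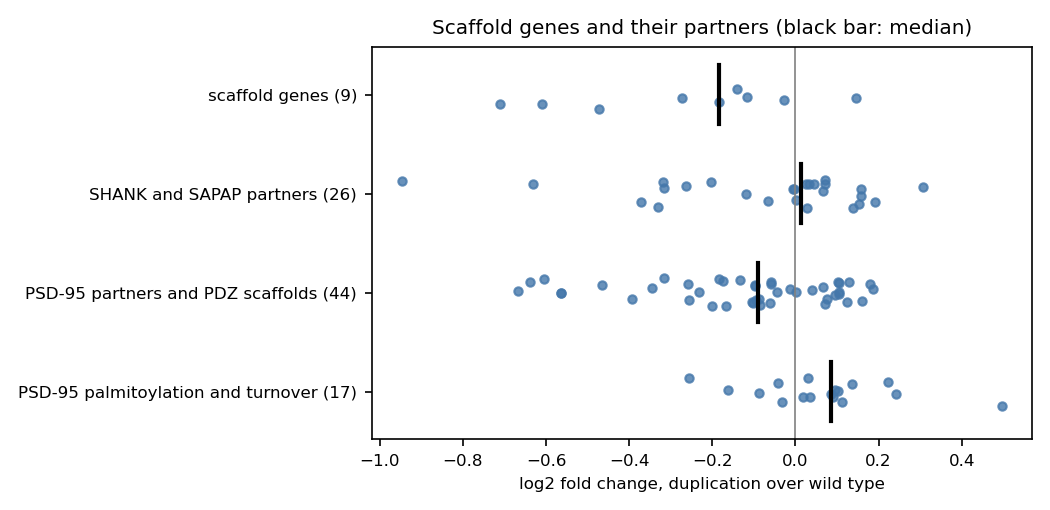
Log2 fold change of duplication over wild type (horizontal axis) for each gene of the 9 scaffold genes and of the 3 partner lists (rows, number of tested genes in brackets), with the median as a black bar. The medians are -0.18, 0.01, -0.09 and 0.09 from top to bottom, and none of the points passed the adjusted threshold.

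The genes most like Shank1 across the libraries were Prrc2b, Tnrc18 and Prrc2a, with root mean square differences of 0.074, 0.074 and 0.086 over the 6 libraries in centred log2 CPM, where the root mean square of Shank1 itself was 0.488 and 250 genes varied enough to be candidates. Their log2 fold changes were -0.73, -0.70 and -0.78. Being picked for likeness to Shank1 in these same libraries, they were bound to have values near its own. Nearest to Dlg4 were Rnf214, Phc2 and Khdrbs1 (0.021, 0.021 and 0.028, against 0.093 for Dlg4), and nearest to Shank3 were Kcnq5, Zfp46 and Dhx32 (0.017, 0.033 and 0.033, against 0.088 for Shank3). For Dlg4 and Shank3, whose spread was small, 6446 and 6666 genes were candidates.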

How the data were processed

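RNA of 6 prefrontal cortex libraries was sequenced. Per the labels' protocols extraction was by Trizol and libraries were made with TruSeq stranded total RNA and Ribo-zero reagents. Per the submitters' processing notes, cutadapt, TopHat2, HTSeq and build mm10 were used; versions, annotation and strand setting are not stated there. Un-normalized gene counts were deposited, with 45807 lines of counts and 45801 names. Each library's separate table held the same 45801 values as the joint one. Names were re-aligned with 6 offset steps taken from an earlier analysis of these data, and lines within 25 of a step were left unnamed (312 lines, 0.606% to 0.636% of counts) and out of library sizes and tests.

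The main test of genotype used edgeR 4.0.16 under R 4.3.3 (TMM, filterByExpr, quasi-likelihood F-test, Benjamini-Hochberg over 15419 genes), with DESeq2 1.42.0 and limma 3.58.1 as alternatives. The fit was tested on simulated data. Common dispersion had a square root of 0.0951. CPM uses TMM-scaled library sizes, and centred log2 CPM a prior count of 2. The SE was computed from the log2 fold change and the F of the edgeR test, and the 95% interval from that SE. Both rest on the spread between libraries, moderated across genes. The total degrees of freedom had a median of 9.07, against 4 residual. The 3 lowest and 3 highest genes of each partner list are named, with the 3 genes most like Shank1, Shank3 and Dlg4. A further gene that the choice of genes covers is not reported here. Members and lists were chosen with earlier results of these data known. Annotation was GENCODE M21, in which 91.7% of used names were found.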

Additional observations from a re-analysis of the deposited data

How the results depend on the processing

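The log2 fold change of Shank1, Shank2, Dlgap1, Dlgap2, Dlgap4 and Dlg2 was below 0 in 18 of 19 alternatives with re-aligned names, that of Dlg4 in 19 of 19, and that of Dlg1 above 0 in 19 of 19. The exception was the fit with the TEC and sense intronic level as a covariate, in which the log2 fold change was 0.292 for Shank1, 0.032 for Shank2, 0.013 for Shank3, 0.037 for Dlgap1, 0.190 for Dlgap2, -0.080 for Dlgap3, 0.071 for Dlgap4, 0.012 for Dlg2 and 0.041 for Dlg3, and the median of the 9 genes 0.032. With the nuclear long noncoding RNA level as a covariate Dlgap3 was at -0.032. The values nearer to 0 included Shank1 at -0.121, Dlgap2 at -0.119, Dlgap4 at -0.085, Shank2 at -0.084, Dlg2 at -0.040 and the median of the 9 at -0.080. For these the sign held but not the size. Both covariates themselves separated the genotypes, so these fits cannot tell them from genotype. Leaving out 1 library gave -0.083 to 0.053 for Shank3, above 0 without wild type replicate 1 (0.053) or duplication replicate 2 (0.006). With names as deposited Dlg3 stood at 0.039, and Shank1 and Dlgap1 could not be tested.

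DESeq2 called 48 genes higher and 176 lower in all, 2 scaffold genes lower, and 1 partner gene higher and 2 lower. With low counts kept, edgeR called 173 and 843, with 3 scaffold genes lower (Shank1, Dlgap2 and Dlgap4) and 1 partner gene higher and 9 lower. Leaving out 1 library gave 0 to 727 genes higher and 0 to 1677 lower, 0 to 5 scaffold genes lower, 0 to 3 partner genes higher and 0 to 22 lower, the highest of each without wild type replicate 2. Without both libraries numbered 2, chosen after seeing the data, the counts were 230 and 1094 genes, 5 scaffold genes lower, and 2 and 15 partner genes. With the replicate block edgeR called 6 genes higher and 1 lower and none of the scaffold genes. Same-numbered libraries had correlations of deviations of 0.102, 0.063 and 0.311. Wild type replicate 2 correlated better with duplication replicate 1 (0.157) than with its own number. Same-numbered libraries did share their pattern of Xist and Y-linked counts, so whether they were matched cannot be told from these values. The main test did not pair them, and the replicate block is the fit that did. The causes were not tested. The spread between the 3 libraries per genotype includes counting error, and its parts were not separated.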
